A study of Mus musculus with 16 samples.

Results

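The 10 genes followed here belong to the extracellular matrix and were measured in cultured mouse endothelial cells: Bgn, Dcn, Postn, Tnc, Eln, Fbln2, Sparc, Fn1, Thbs1 and Tgfbi. They comprise matricellular proteins, small leucine-rich proteoglycans, tropoelastin and fibronectin, and were taken by name, with every probe set that the platform annotation assigns to them on both Affymetrix chips of the study. This gave 14 probe sets of 9 genes, of 24965 probe sets on the chips. The only probe set naming Thbs1, 160469_at, is annotated to both Pald1 and Thbs1, and it is described apart under that name. The study compared VE-cadherin (VEC) positive with VEC null endothelial cells, each at confluent and at sparse density, after 36 h of starvation in medium with albumin. All 4 groups, confluent VEC-positive, sparse VEC-positive, confluent VEC-null and sparse VEC-null cells, carry the same description, endothelial cells obtained from mouse embryonic stem cells homozygous for a null VE-cadherin gene. How the VEC-positive cells came to make VEC, and how many clones stand behind each line, the sources used here do not say. Each group was 1 cRNA sample placed on 2 copies of MG_U74Av2 (chip A) and 2 copies of MG_U74Bv2 (chip B), 16 arrays in all. The copies are technical, so the SD, SE and p values below measure the spread between hybridisations of the same cRNA and not the spread between cultures. Only the p values of the fit of averaged copies, given later, differ: they rest on departures from a model in which VEC and density changes add up. They do not measure the spread between cultures either.

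Matricellular proteins are secreted into the matrix, where they act less as scaffold than as ligands that modulate adhesion, growth factor supply and collagen assembly. Small leucine-rich proteoglycans such as biglycan and decorin bind collagen fibrils and transforming growth factor beta, and elastic fibres are built from tropoelastin on a scaffold to which fibulins attach. In vessels these proteins are made by mural cells, fibroblasts and, in part, by the endothelium itself, and several of them are known from remodelling tissue.

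RefSeq lists promoters, from 250 bases before to 50 bases after a start site, for 6 of the 10 genes (8 windows, assembly GRCm38.p6). The 5 windows below are shown because, among the genes with a listed promoter, theirs carried the largest differences described below: Bgn and Tgfbi were highest in confluent VEC-positive cells, Tnc and Fbln2 in sparse VEC-positive cells, and Postn in confluent VEC-null cells. For Tnc and Postn, which have 2 listed starts, the more downstream one is shown. Capitals mark matches on either strand to 8 short motifs: the TATA box written as TATAAA, the GC box written as GGGCGG, the AP-1 site written as TGANTCA, the SMAD box written as CAGACA, the TEAD site written as GGAATG, the FoxO site written as GTAAACA, the TCF site written as ATCAAAG and the E-box written as CACCTG. Sequences run 5′ to 3′ along the gene's strand.
Bgn (chrX:73483351-73483650, plus strand): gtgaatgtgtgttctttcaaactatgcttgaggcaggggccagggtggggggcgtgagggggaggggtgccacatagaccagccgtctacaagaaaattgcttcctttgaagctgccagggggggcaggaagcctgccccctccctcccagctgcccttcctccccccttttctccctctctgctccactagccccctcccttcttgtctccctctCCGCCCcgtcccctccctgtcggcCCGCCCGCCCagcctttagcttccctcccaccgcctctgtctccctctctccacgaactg
Tgfbi (chr13:56609336-56609635, plus strand): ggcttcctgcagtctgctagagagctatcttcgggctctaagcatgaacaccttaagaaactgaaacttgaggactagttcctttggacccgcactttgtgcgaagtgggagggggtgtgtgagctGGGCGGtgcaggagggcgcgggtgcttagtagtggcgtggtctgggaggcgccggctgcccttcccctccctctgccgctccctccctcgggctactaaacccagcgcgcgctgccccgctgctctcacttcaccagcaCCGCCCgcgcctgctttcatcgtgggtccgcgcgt
Tnc (chr4:64046887-64047186, minus strand): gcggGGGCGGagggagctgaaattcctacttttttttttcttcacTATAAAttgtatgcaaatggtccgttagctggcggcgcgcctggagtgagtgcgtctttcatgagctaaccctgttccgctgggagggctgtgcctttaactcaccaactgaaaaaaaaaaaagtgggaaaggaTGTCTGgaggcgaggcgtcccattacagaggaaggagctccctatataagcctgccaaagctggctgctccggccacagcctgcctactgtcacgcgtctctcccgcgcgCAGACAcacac
Fbln2 (chr6:91212514-91212813, plus strand): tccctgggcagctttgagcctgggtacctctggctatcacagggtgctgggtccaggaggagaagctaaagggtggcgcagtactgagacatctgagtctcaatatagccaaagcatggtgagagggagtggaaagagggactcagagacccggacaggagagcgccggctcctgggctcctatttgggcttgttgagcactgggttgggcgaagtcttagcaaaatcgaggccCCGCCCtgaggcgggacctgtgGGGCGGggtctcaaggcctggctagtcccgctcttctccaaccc
Postn (chr3:54360857-54361156, plus strand): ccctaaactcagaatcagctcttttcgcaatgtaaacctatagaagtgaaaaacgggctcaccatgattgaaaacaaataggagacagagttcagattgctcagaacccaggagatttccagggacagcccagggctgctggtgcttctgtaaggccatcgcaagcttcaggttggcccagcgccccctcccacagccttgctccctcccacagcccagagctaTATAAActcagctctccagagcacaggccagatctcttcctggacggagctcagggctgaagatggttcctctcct
The Bgn window held 3 GC boxes, at 34, 10 and 6 bases before the start, of which the last 2 overlap. In Tgfbi a GC box lay 124 bases before the start and another 16 bases after it, and in Fbln2 GC boxes lay 16 bases before and 7 bases after it. The GC box occurs in 35.6% of 32817 promoter windows, and whether these genes hold it more often was not tested. Postn held a TATA box 26 bases before its start, a motif found in 13.6% of windows, and no other of the 8 motifs. The Tnc window held the letters TATAAA 205 bases and a GC box 246 bases before the start, and SMAD boxes, found in 21% of windows, 71 bases before and 40 bases after it. No window of Bgn, Tgfbi, Tnc, Fbln2 or Postn held the AP-1, TEAD, FoxO, TCF or E-box letters, which occur in 7.81%, 14.7%, 3.65%, 3.73% and 20.2% of all windows. These matches describe the letters only. Variants of the letters, such as the unmarked tatataag of the Tnc window, were not searched.

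Values are MAS5 signals on a linear scale, and changes are differences of log2(signal + 50), so that the change of a dim probe set is understated. To pass a comparison, a probe set needed a limma adjusted p under 0.05 together with a log2 difference of 1 or more, that is 2-fold. Copies of a sample correlated with r between 0.945 and 0.987 over tested probe sets, and array medians ran from 139.8 to 174.1 (chip A) and from 223.2 to 251 (chip B). Cdh5, which encodes VEC, had mean signals of 2566 in confluent VEC-positive against 2608 in confluent VEC-null cells, and 1399 in sparse VEC-positive against 1268 in sparse VEC-null cells. The sources used here do not say which part of the gene was deleted, so these signals are no check of the labels. Of 10 endothelial markers, 10 were measured, and the summed signal of the 9 on chip A was 39790 to 40770 in confluent VEC-positive, 18720 to 21690 in sparse VEC-positive, 39440 to 39540 in confluent VEC-null and 11460 to 11620 in sparse VEC-null cells. Pecam1 was at 118 to 180.8 in the 4 group means and Cldn5 at 50.5 or less outside confluent VEC-positive cells. Of 10 fibroblast and smooth muscle markers on chip A, 6 passed the level filter, and their summed signal over all 10 was 2854 to 3228, 9847 to 11580, 2442 to 2481 and 2744 to 2842 in the same order of groups, the high sum in sparse VEC-positive cells being mostly S100a4 (9477). Of the other markers in this list, the highest group means were 371.4 for Acta2, 327.6 for Pdgfrb and 164.8 for Tagln, while Cnn1, Des and Thy1 were at 33.25 or less, and Col1a2 reached 967.8 by one probe set and 16.65 by the other. The part of these markers in the results below was not tested. In these bulk samples fewer cells that express a gene cannot be told apart from less RNA per cell.

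Most of the genes differed between the conditions, and they did so in different patterns rather than together. Bgn, Tgfbi and Eln were high in confluent VEC-positive cells, Tnc and Fbln2 in sparse VEC-positive cells, and Postn in confluent VEC-null cells, while Dcn was higher in VEC-positive than in VEC-null cells at both densities. Sparc and Fn1 varied least. The level filter kept 12 of the 14 probe sets, and Postn, Tgfbi, Eln and the chip B probe set of Sparc passed it through a single group, so that their difference is partly built into their being tested. Of the 12, in confluent cells 5 were higher and 2 lower in VEC-positive than in VEC-null cells (of all 14267 tested probe sets 7.92% passed, 4.3% higher and 3.62% lower), and in sparse cells 4 were higher and 1 was lower (9.69% of all, 5.43% higher and 4.27% lower). Between densities, 4 rose and 3 fell in confluent against sparse VEC-positive cells (15.4% of all, 8.14% higher and 7.21% lower), whereas 1 rose and 0 fell in VEC-null cells (16.5% of all, 9.1% higher and 7.39% lower). The density response differed between the lines for 8 of the 12 (12.2% of all, 5.91% more positive and 6.33% more negative), with 4 more positive and 4 more negative in VEC-positive cells. The median size of change was 1.07 over the 12 against 0.32 over all tested in the confluent VEC comparison, 0.43 against 0.36 in the sparse one, 1.46 against 0.43 for density in VEC-positive cells and 0.50 against 0.42 for density in VEC-null cells. These genes were chosen by name with earlier results of the same arrays known, so the counts describe them and are not evidence about matrix genes in general.

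**Figure D1:**
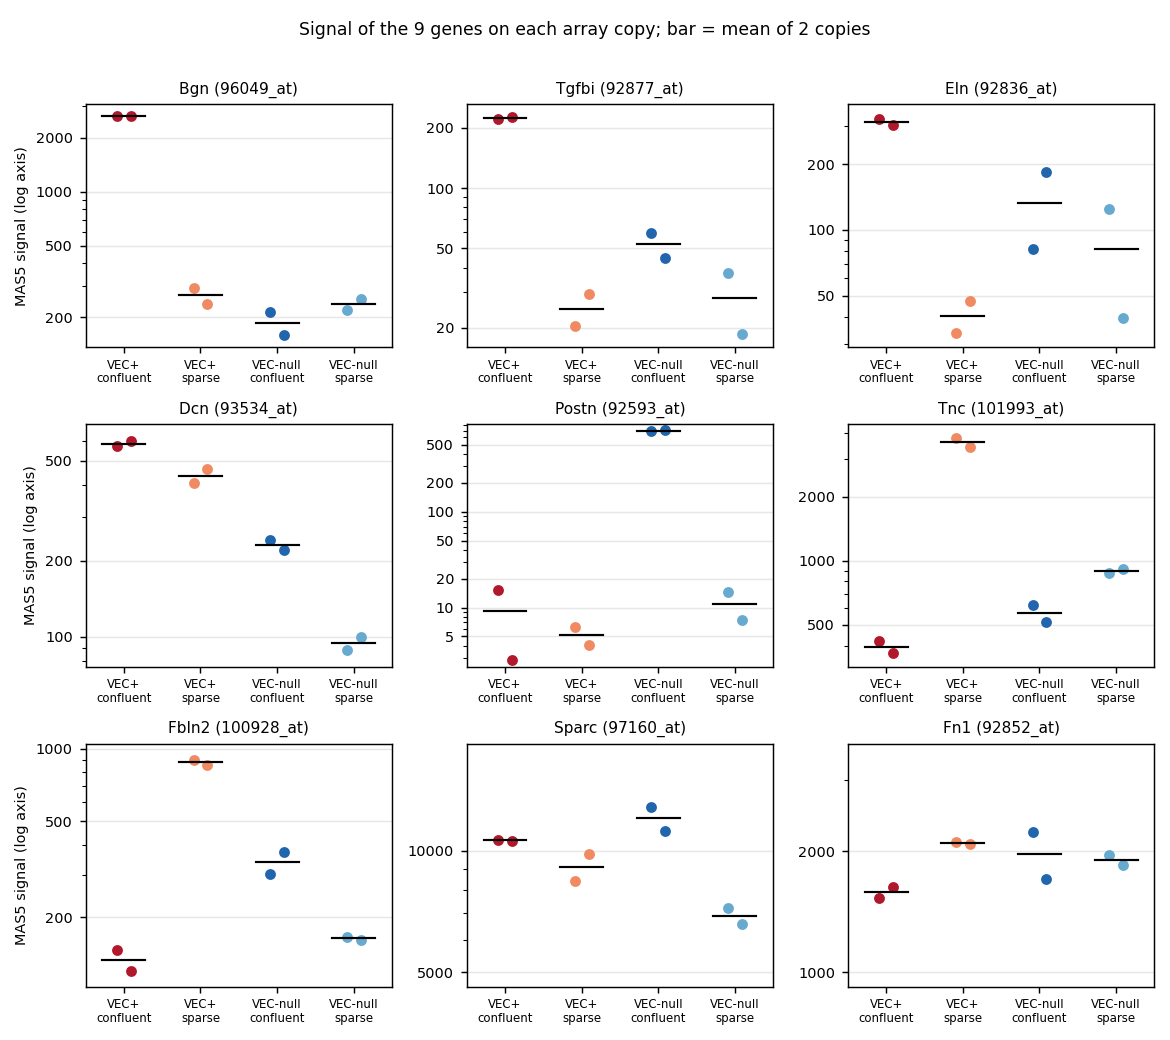
MAS5 signal (vertical log axes) of the 9 genes by their representative probe set on each chip A array, with the 2 copies of each group as points and their mean as a bar; groups run from confluent and sparse VEC-positive to confluent and sparse VEC-null cells. Bgn stands at about 2633 in confluent VEC-positive cells only, Postn at 704.9 in confluent VEC-null cells only, and Tnc at 3596 in sparse VEC-positive cells.

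The small proteoglycan genes both had their highest signal in confluent VEC-positive cells. Biglycan, encoded by Bgn, binds collagen and, once released, can act on Toll-like receptors. Its probe set 96049_at read 2638.7 and 2628.2 in confluent VEC-positive cells, 292.2 and 237.6 in sparse VEC-positive cells, 214.6 and 158.7 in confluent VEC-null cells, and 219.1 and 252.8 in sparse VEC-null cells. Both copies of the confluent VEC-positive sample thus stood far above every other array, and the other 3 groups lay close together. The log2 change of confluent VEC-positive against confluent VEC-null cells was 3.51 (SE 0.15, 11.4-fold, limma adjusted p 5.7e-07), and that of confluent against sparse VEC-positive cells was 3.10 (SE 0.15, 8.55-fold, adjusted p 2.5e-07). Neither the VEC comparison in sparse cells (log2 0.14) nor the density comparison in VEC-null cells (-0.28) passed. The density response was therefore 3.38 (SE 0.21) more positive in VEC-positive than in VEC-null cells, with an adjusted p of 1.6e-05. Of the 10 endothelial markers, 2 were higher with VEC than without it among confluent cells (4.3% of all tested probe sets were higher). These were Cldn5 (5115 against 50.5) and Vwf (2516 against 21.95). The other 8 did not pass, among them Kdr (2266 against 4234) and Tek (1982 against 2864), and the median change of the 10 was -0.10.

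A further Bgn probe set, 162347_f_at, of a class that Affymetrix marks as sharing probes with similar sequences, gave the same direction with a smaller size. It read 561.4 and 599.7 in confluent VEC-positive against 144.3 and 178.4 in confluent VEC-null cells, and 237.1 and 250.1 in sparse VEC-positive against 227 and 245.3 in sparse VEC-null cells. The confluent VEC comparison gave a log2 change of 1.58 (SE 0.14, 2.99-fold) and the density comparison in VEC-positive cells 1.10 (SE 0.14), and both passed. The density change no longer reached 1 with an offset of 200 (0.81) or after quantile normalization (0.97).

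Decorin, encoded by Dcn, is the closest relative of biglycan in this set, and it regulates collagen fibril growth and binds growth factors. Its single probe set, 93534_at, read 570.6 and 602.1 in confluent VEC-positive, 408 and 462.5 in sparse VEC-positive, 242 and 220.4 in confluent VEC-null, and 88.2 and 99.7 in sparse VEC-null cells. No copies of different groups overlapped, and the order ran from confluent VEC-positive down to sparse VEC-null cells. Unlike Bgn, Dcn passed the VEC comparison at both densities, with a log2 change of 1.18 (SE 0.14, 2.26-fold, adjusted p 0.00018) in confluent and 1.75 (SE 0.14, 3.37-fold, adjusted p 1.3e-05) in sparse cells. Confluent cells were above sparse cells in each line, by 0.39 in VEC-positive and 0.97 in VEC-null cells, and neither change reached 1. The difference between these responses was -0.57 (SE 0.19, adjusted p 0.05) and did not pass. Dcn lies on chromosome 10, whose 631 tested probe sets had median VEC changes of 0.44 in confluent and 0.37 in sparse cells, and less that median the confluent Dcn change was 0.74. With an offset of 200 it was 0.87.

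The 2 fasciclin-domain genes, Postn and Tgfbi, were each high in confluent cells, but of opposite lines. Periostin, encoded by Postn, binds integrins and promotes collagen cross-linking in remodelling tissue. Its probe set, 92593_at, read 15.4 and 2.8 in confluent VEC-positive and 6.3 and 4.1 in sparse VEC-positive cells, against 703.8 and 706 in confluent VEC-null and 14.4 and 7.5 in sparse VEC-null cells. Confluent VEC-null cells alone were high, and the other 6 arrays lay at signals with no resolvable order. The log2 change of confluent VEC-positive against confluent VEC-null cells was -3.68 (SE 0.20, 12.8-fold lower, adjusted p 2.2e-06), and confluent against sparse VEC-null cells gave 3.63 (SE 0.20, 12.4-fold, adjusted p 5.2e-07). In VEC-positive cells density gave 0.09, and the difference between the lines' responses was -3.54 (SE 0.28, adjusted p 4.8e-05). As the low arrays are near zero, these sizes depend on the offset: with an offset of 1 the first 2 changes were -6.48 and 5.95. The mural cell marker Pdgfrb had a similar profile. Its mean signals were 10.2 in confluent and 9.5 in sparse VEC-positive cells, against 327.6 in confluent and 13 in sparse VEC-null cells. Among confluent cells Acta2 was also lower with VEC than without (5.55 against 122.6). The Acta2 profile differed from that of Postn, however, being higher in the sparse cells of each line (133.1 with VEC and 371.4 without). Of the other 4 tested markers of that list, S100a4 was higher with VEC among confluent cells (1718 against 738.1) and 3 did not pass. Over all tested probe sets, 4.3% were higher and 3.62% lower in that comparison. With confluence in VEC-null cells, where Postn rose, 1 of the 6 tested markers rose, 2 fell and 3 did not pass. Of all tested probe sets, 9.1% rose and 7.39% fell there. The part of such cells was not tested.

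Tgfbi encodes a secreted adhesion protein first found as a gene induced by transforming growth factor beta. Its probe set 92877_at read 221.3 and 225.8 in confluent VEC-positive cells, against 59.6 and 44.8 in confluent VEC-null cells. In sparse cells it read 20.3 and 29.5 with VEC and 37.5 and 18.6 without. Both confluent VEC-positive copies were above the other 6 arrays, and the sparse groups overlapped. Confluent VEC-positive cells were higher than confluent VEC-null cells by 1.42 on the log2 scale (SE 0.21, 2.68-fold, adjusted p 0.00071) and higher than sparse VEC-positive cells by 1.87 (SE 0.21, 3.66-fold). The responses of the lines to density differed by 1.48 (SE 0.30, adjusted p 0.0051). With an offset of 200 these 3 changes shrank to 0.75, 0.91 and 0.77, all under 1, and with an offset of 1 they were 2.09, 3.14 and 2.20. The other Tgfbi probe set, 161157_r_at, designed under relaxed rules, read 31.2 or less on every array and was not tested.

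**Figure D2:**
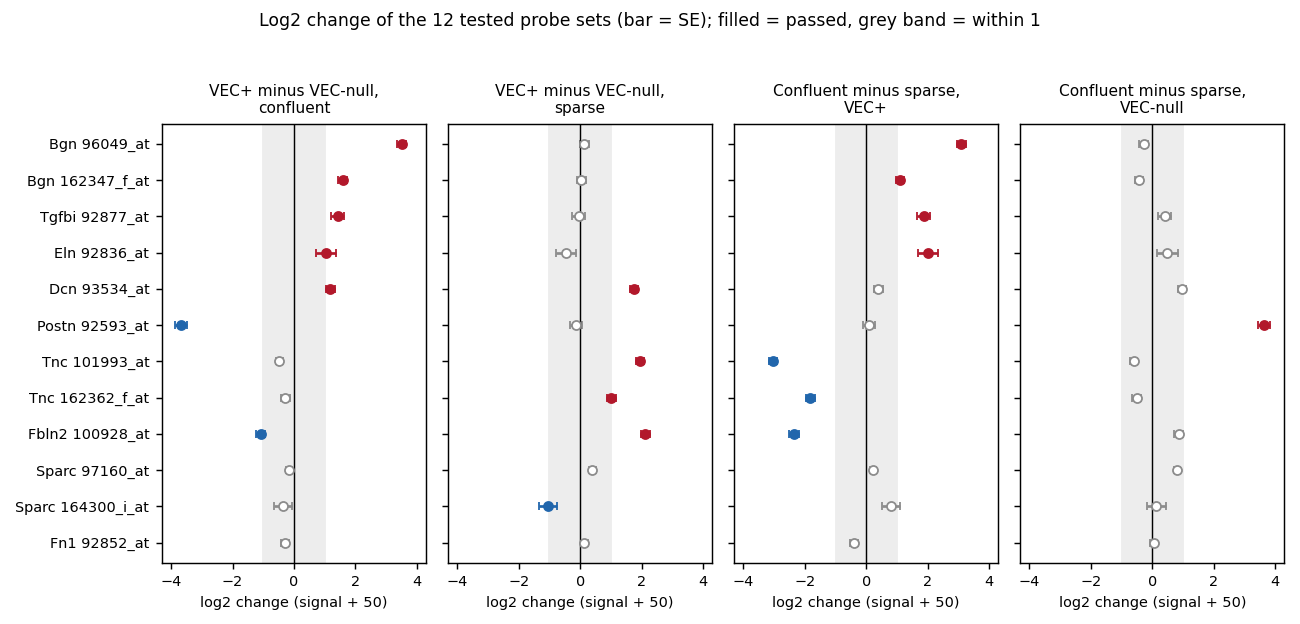
Log2 change of signal + 50 for the 12 tested probe sets (rows) in 4 comparisons (panels), with SE bars; filled points passed, red higher and blue lower, and the grey band marks changes under 1. Bgn, Tgfbi and Eln lie to the right for VEC in confluent cells and for density in VEC-positive cells, and Postn (-3.68 and 3.63) moves for VEC in confluent cells and for density in VEC-null cells.

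Tenascin C and fibulin 2 transcripts were highest in sparse VEC-positive cells and fell at confluence in that line. Tenascin C, encoded by Tnc, is a large glycoprotein of wound and embryonic matrix that loosens adhesion to fibronectin. Its probe set 101993_at read 418.4 and 369.8 in confluent and 3765.7 and 3426.8 in sparse VEC-positive cells, against 620 and 518.9 in confluent and 876.1 and 915.1 in sparse VEC-null cells. No groups overlapped. Sparse VEC-positive cells exceeded sparse VEC-null cells by 1.95 (SE 0.12, 3.85-fold, adjusted p 2.7e-06), and confluent VEC-positive cells were 8.21-fold lower than sparse ones (log2 -3.04, SE 0.12, adjusted p 6e-08). In VEC-null cells the density change was -0.61 and did not reach 1. The density response was 2.42 on the log2 scale more negative in VEC-positive cells (log2 -2.42, SE 0.16, adjusted p 2e-05).

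The further Tnc probe set, 162362_f_at, kept the same order of the 4 groups. It read 106.8 and 85.9 in confluent and 455.4 and 474.1 in sparse VEC-positive cells, against 129.1 and 127.3 in confluent and 210 and 196.5 in sparse VEC-null cells. Its changes were 1.02 for VEC in sparse cells, -1.82 for density in VEC-positive cells and -1.31 for the difference between the lines, and all 3 passed. The first of these was close to the threshold and was 0.99 without the second sparse VEC-null copy and 0.72 with an offset of 200.

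Fibulin 2, encoded by Fbln2, links fibronectin, fibrillin and basement membrane proteins. Its probe set, 100928_at, read 146.5 and 119.9 in confluent and 900 and 858.3 in sparse VEC-positive cells, against 302.6 and 374.3 in confluent and 165.1 and 161.5 in sparse VEC-null cells. The density change had opposite signs in the lines: confluent VEC-positive cells were 5.08-fold lower than sparse ones (log2 -2.35, SE 0.15, adjusted p 1.2e-06), and confluent VEC-null cells gave 0.86 (SE 0.15, adjusted p 0.00092), which did not reach 1. Between the lines, VEC-positive cells were higher when sparse (log2 2.12, SE 0.15, 4.36-fold, adjusted p 6.7e-06) and lower when confluent (log2 -1.08, SE 0.15, 2.12-fold, adjusted p 0.00045). Fbln2 was the only one of the 9 genes whose representative probe set passed the VEC comparison in opposite directions at the 2 densities. The confluent change was near the threshold, at -0.98 without the second confluent VEC-positive copy, -0.95 without the second confluent VEC-null copy and -0.69 with an offset of 200. The difference between the density responses was -3.20 (SE 0.21, 9.22-fold, adjusted p 1.7e-05). Of the 6 tested fibroblast and smooth muscle markers, 1 was higher and 1 lower in sparse VEC-positive than in sparse VEC-null cells (5.43% and 4.27% of all tested probe sets). These were S100a4 (9477 against 1146) and Acta2 (133.1 against 371.4), with a median change of -0.11 over the 6 markers. Their part in the Tnc and Fbln2 results was not tested.

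**Figure D3:**
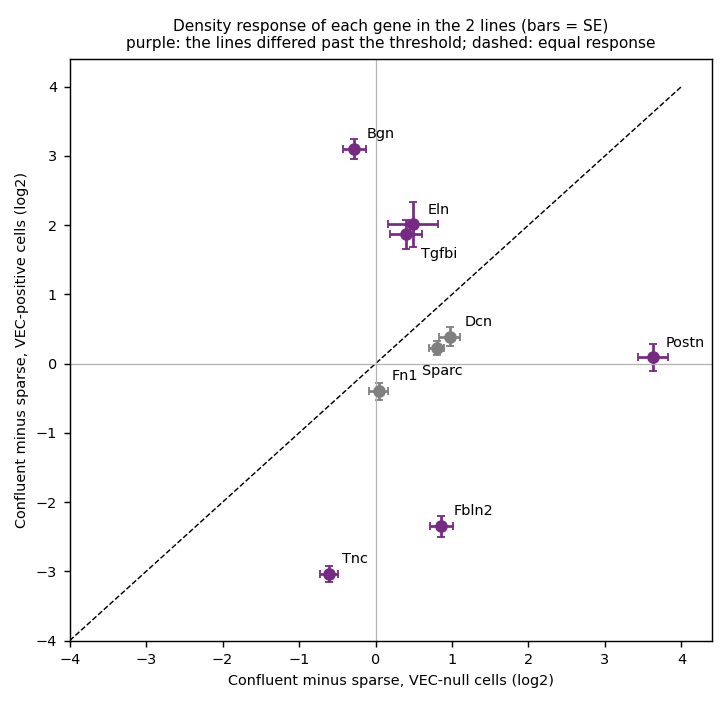
Confluent minus sparse log2 change in VEC-null cells (horizontal) against that in VEC-positive cells (vertical) for the representative probe sets of the 9 genes, with SE bars; purple marks genes whose responses differed past the threshold and the dashed line marks equal responses. Bgn (3.10 in VEC-positive and -0.28 in VEC-null cells) and Postn (0.09 and 3.63) lie farthest from the line on opposite sides, with Fbln2 and Tnc below it and Fn1, Sparc and Dcn near it.

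Elastin, the core of elastic fibres, is made from the tropoelastin gene Eln. Its probe set 92836_at read 322.6 and 303.1 in confluent and 33.9 and 47.3 in sparse VEC-positive cells, against 81.6 and 183.8 in confluent and 124.4 and 39.5 in sparse VEC-null cells. Both confluent VEC-positive copies were above the other 6 arrays, but copies of the VEC-null samples were 2.25-fold apart when confluent and 3.15-fold apart when sparse. The rise in confluent against sparse VEC-positive cells was 2.01 (SE 0.33, 4.01-fold, adjusted p 0.00085). The change of confluent VEC-positive against confluent VEC-null cells was 1.05 (SE 0.33, adjusted p 0.037). It was 0.63 without the first confluent VEC-null copy, and 1.01 or 1.09 without the first or second confluent VEC-positive copy. The call was lost in each of these fits and without the level filter (adjusted p 0.09). It was also lost with offsets of 1 (1.34, adjusted p 0.088), 16 (1.24, adjusted p 0.062) and 200 (0.64). The difference between the density responses was 1.52 (SE 0.47, adjusted p 0.038), and its adjusted p reached 0.12 when single copies were left out. The other Eln probe set, 92207_at, read between 17.3 and 64.6 on all arrays, failed the level filter and did not show the high confluent VEC-positive signal (61.6 and 41.5, against 56.4 and 64.6 in confluent VEC-null cells).

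Sparc and Fn1 passed no comparison by their representative probe sets. Sparc encodes a collagen-binding calcium protein known from endothelial cells in culture. Its probe set 97160_at read 10667.4 and 10606.8 in confluent and 8438.9 and 9797.7 in sparse VEC-positive cells, against 12890.4 and 11199.1 in confluent and 7204.3 and 6582.6 in sparse VEC-null cells. Confluent cells were above sparse cells in both lines, by 0.23 (adjusted p 0.079) in VEC-positive and 0.80 (SE 0.10, adjusted p 9.3e-05) in VEC-null cells, and neither change reached 1. The VEC change was -0.17 in confluent and 0.40 in sparse cells, and the difference between the density responses was -0.57 (adjusted p 0.012). After quantile normalization the density change in VEC-positive cells was 0.63 (adjusted p 0.00063), the VEC change in confluent cells 0.12 and the difference between the responses -0.19 (adjusted p 0.35). The chip B probe set of Sparc, 164300_i_at, went against this: it read 153.6 and 198.6 in confluent and 59.7 and 101.9 in sparse VEC-positive cells, against 235.2 and 244.2 in confluent and 169.1 and 270.1 in sparse VEC-null cells. It passed for VEC in sparse cells with a log2 change of -1.04 (SE 0.30, adjusted p 0.022), opposite in sign to 97160_at, and lost the call without the first sparse VEC-positive copy (-0.80, adjusted p 0.1) or the second sparse VEC-null copy (-0.76, adjusted p 0.17). Sparc thus has no settled direction between the lines in sparse cells.

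Fibronectin, encoded by Fn1, is the main ligand of integrin alpha 5 beta 1 and a scaffold on which other matrix proteins assemble. Its probe set, 92852_at, read 1527.4 and 1628.4 in confluent and 2110.2 and 2078.5 in sparse VEC-positive cells, against 2224.2 and 1709 in confluent and 1953.4 and 1842.1 in sparse VEC-null cells. The confluent VEC-positive copies were below all other arrays, and the confluent VEC-null copies spanned those of both sparse groups. The 4 pairwise changes lay between -0.40 and 0.14, and the difference of the density responses was -0.44 (SE 0.17, adjusted p 0.08). Of these the density change in VEC-positive cells, -0.40 (SE 0.12), had an adjusted p of 0.02 without reaching a change of 1.

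**Figure D4:**
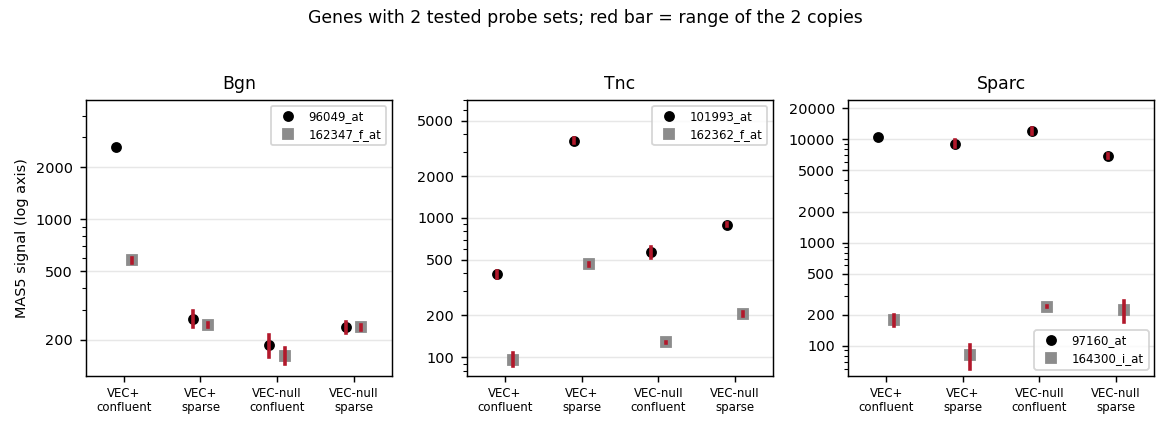
Mean MAS5 signal (vertical log axes) in the 4 groups for the representative (black circles) and the other probe set (grey squares) of Bgn, Tnc and Sparc, with red bars for the range of the 2 copies. The probe sets of Bgn and of Tnc share the order of the groups, with a smaller log2 change for Bgn by 162347_f_at (1.58) than by 96049_at (3.51) between the lines in confluent cells, while those of Sparc order the sparse groups differently.

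Probe set 160469_at, annotated to Pald1 and to Thbs1 (thrombospondin 1, a matricellular inhibitor of angiogenesis), was lower in confluent than in sparse cells of both lines. It read 1054.1 and 956.9 in confluent and 4544.1 and 4638 in sparse VEC-positive cells, against 275.7 and 227.7 in confluent and 2532.3 and 2656.9 in sparse VEC-null cells. No groups overlapped. Confluence went with a log2 change of -2.14 (SE 0.10, 4.4-fold lower, adjusted p 2.5e-07) in VEC-positive and -3.14 (SE 0.10, 8.79-fold lower, adjusted p 2.6e-08) in VEC-null cells. Confluent VEC-positive cells were 3.51-fold above confluent VEC-null cells (log2 1.81, SE 0.10, adjusted p 2.8e-06), and in sparse cells the change of 0.81 did not reach 1. The difference between the density responses, 1.00 before rounding just under the threshold (adjusted p 0.0011), did not pass. As Pald1 and Thbs1 are separate genes, the signal cannot be assigned to Thbs1 alone.

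Of 17 listed matricellular relatives, 14 were on the chips and 4 passed the level filter (Ccn1, Ccn2, Ccn3 and Ccn4). At confluence 2 of the 4 fell in VEC-positive cells (7.21% of all tested probe sets) and 3 of the 4 in VEC-null cells (7.39% of all). The list medians were -1.63 and -2.51, against 0.02 and -0.00 over all tested probe sets. Between the lines 1 was higher in confluent VEC-positive cells (4.3% of all) and 1 lower in sparse VEC-positive cells (4.27% of all). Ccn2, which encodes connective tissue growth factor, averaged 696 ± 63.8 in confluent and 12250 ± 2090 in sparse VEC-positive cells, against 138.2 ± 2.12 in confluent and 6631 ± 800 in sparse VEC-null cells (SD, n = 2 copies each). Like 160469_at, it was lower in confluent cells of both lines (log2 -4.04 and -5.14) and, among confluent cells, higher with VEC than without (log2 1.98, adjusted p 6.7e-06). Ccn1, an adhesive relative of Ccn2, changed by -3.55 with density in VEC-positive and -3.78 in VEC-null cells, and did not pass between the lines. Ccn4 was 2.53-fold lower in sparse VEC-positive than in sparse VEC-null cells (742 ± 40.2 against 1953 ± 123).

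Elastic fibre genes were represented by 6 of 18 listed members. In confluent cells 3 were higher in VEC-positive than in VEC-null cells (4.3% of all tested probe sets) and 3 did not pass, with a list median of 0.58 against -0.03 over all tested. With confluence 1 rose and 1 fell in each line, against 8.14% and 7.21% of all in VEC-positive and 9.1% and 7.39% of all in VEC-null cells. Ltbp4, a latent growth factor binding protein needed for elastic fibre assembly, was higher in VEC-positive cells when confluent (1716 ± 33.8 against 487.1 ± 57.1, log2 1.72, adjusted p 1.8e-05) and when sparse (1033 ± 184 against 287.6 ± 7.78, log2 1.67, adjusted p 1.7e-05). Emilin1, an elastin-associated glycoprotein, stood higher at confluence with VEC than without (1236 ± 40.9 against 481.6 ± 34.7, log2 1.28) and rose with density in both lines (log2 1.67 and 1.02). Ltbp1, a latent growth factor binding protein like Ltbp4, was at 164.2 ± 2.83 in confluent VEC-positive against 19.75 ± 6.58 in confluent VEC-null cells (log2 1.62). It was the gene that fell with confluence, by 1.04 on the log2 scale in VEC-positive and by 2.08 in VEC-null cells. Fbln1 and Fbln5, relatives of Fbln2, passed no comparison, with VEC changes of -0.21 and -0.12 in confluent and -0.28 and 0.10 in sparse cells.

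Other proteoglycans were measured for 7 of 16 listed genes, and small leucine-rich ones besides Bgn and Dcn were not among them. In confluent cells Agrn, which encodes the basement membrane proteoglycan agrin, was lower in VEC-positive than in VEC-null cells (878.4 ± 80.1 against 3067 ± 267, log2 -1.75, adjusted p 8.3e-06), and the other 6 did not pass (3.62% of all tested probe sets were lower). Agrn rose with density in both lines (log2 2.14 and 2.94), and Hspg2, which encodes perlecan, rose in VEC-positive cells (4281 ± 496 against 2084 ± 269, log2 1.02). The syndecans Sdc1 to Sdc4 passed no comparison.

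Receptors that bind the members were measured for 8 of 13 listed genes. With confluence, 2 of the 8 rose in VEC-positive cells (8.14% of all tested probe sets) and 5 of the 8 in VEC-null cells (9.1% of all), with list medians of 0.05 and 1.30. The difference between these counts was not tested. Itga9, whose integrin binds tenascin C, was at 416.8 ± 109 in confluent VEC-positive against 2106 ± 162 in confluent VEC-null cells (log2 -2.23, adjusted p 9.5e-05). Itgb5, a partner of the alpha v integrin that binds periostin, changed by 1.40 between the lines in sparse cells (790.6 ± 36.1 against 268.5 ± 27.9) and by -0.92 in confluent cells, and its density responses differed by -2.32 (adjusted p 7.6e-05). Stab1, a scavenger receptor for Sparc, rose with confluence in both lines (log2 4.43 in VEC-positive and 3.91 in VEC-null cells). Cd47, a receptor of thrombospondin 1, rose in VEC-null cells (log2 1.42). The common subunit Itgb1 passed no comparison.

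Of 9 listed genes for ligands and receptors of transforming growth factor beta, which Bgn and Dcn bind and which induces Tgfbi, 8 were measured. Between the lines 1 of 8 passed in confluent cells, namely Acvrl1 (log2 1.02; 4.3% of all tested probe sets were higher). With confluence, 3 rose and 1 fell in VEC-positive cells (8.14% and 7.21% of all), and 3 rose in VEC-null cells (9.1% of all). Tgfb1 rose in both lines (log2 1.90 and 1.57), as did Tgfbr1 (1.42 and 2.20) and Tgfbr2 (2.47 and 2.72), while Tgfb2 was lower in confluent VEC-positive cells (-1.44).

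**Figure D5:**
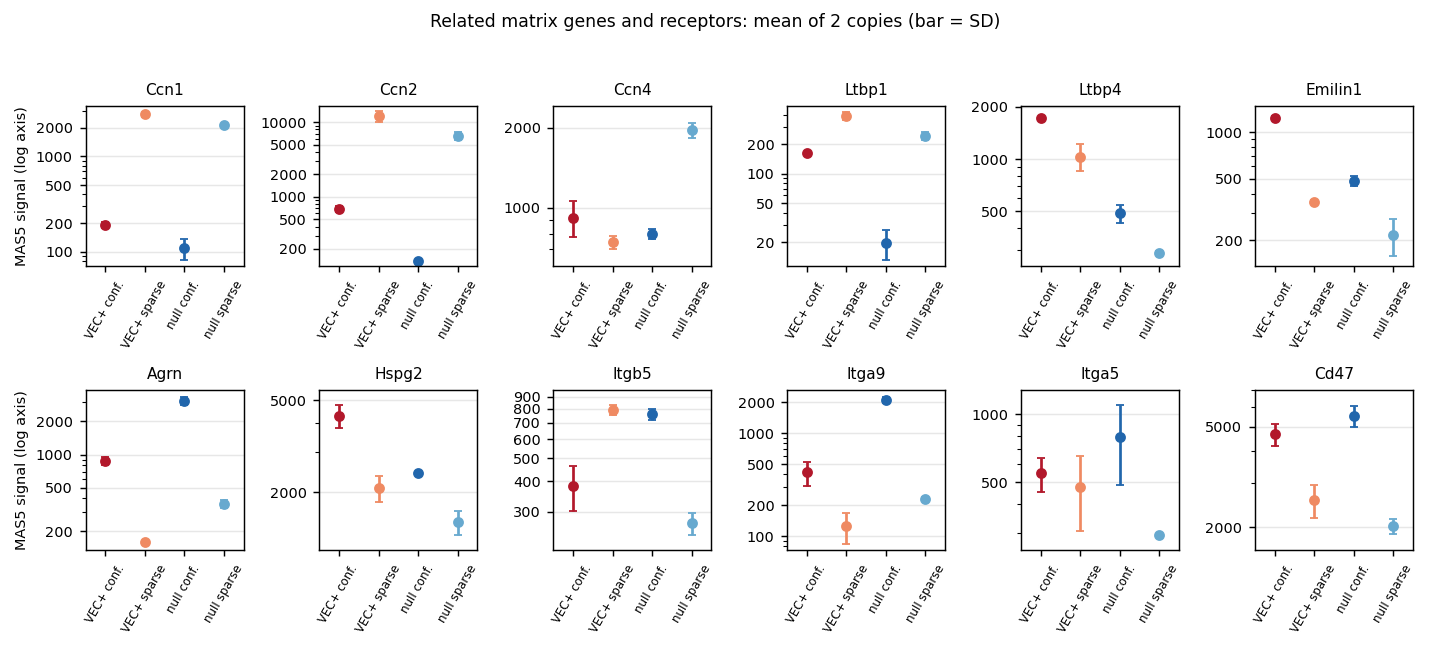
Mean MAS5 signal (vertical log axes, SD bars over 2 copies) of 12 related matrix genes and receptors that passed at least 1 comparison, in confluent and sparse VEC-positive and confluent and sparse VEC-null cells. Ccn1 and Ccn2 are low in confluent cells of both lines, and Itga9 and Agrn are highest in confluent VEC-null cells.

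Genes with the most similar profile were sought on chip A by the root mean square distance of centred log2 values over 8 arrays, which stand for 4 cRNA samples. Nearest to Bgn were Ptprv (distance 0.19), Ahrr (0.27) and a probe set of the laminin gene Lamb3 (0.37). Postn was nearest to Gja4, a vascular connexin (0.22), Col3a1, a fibrillar collagen (0.40), and Sh3gl3 (0.40). For Tnc the nearest were Cd44, a hyaluronan receptor (0.23), and the sterol synthesis genes Mvd (0.26) and Fdft1 (0.27), and for Fbln2 they were Timp1, an inhibitor of metalloproteinases (0.36), Zbtb17 (0.36) and Mea1 (0.36). Tgfbi was nearest to Eny2, Cbx6 and Aplnr (0.18 each), and Dcn to Marveld1 (0.13), Il3ra (0.14) and Dgka (0.16). Eln lay nearest to Six5 (0.27), Rab3il1 (0.28) and Zfp362 (0.30), Sparc to Wwtr1 (0.06), Mapkbp1 (0.08) and Prkar1a (0.09), and Fn1 to Cttn (0.07), Triap1 (0.09) and Pdc (0.09). With 4 independent profiles such closeness is a description of shape.

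When the copies were averaged, so that each of the 4 cRNA samples counted once and VEC and density entered without an interaction, 1 residual degree of freedom per chip was left. Of the 12 probe sets, only Dcn passed for VEC (log2 1.47, adjusted p 0.033) and only Tnc 101993_at for density (log2 -1.83, adjusted p 0.048). Of all 14267 tested probe sets, 302 passed for VEC and 1412 for density in the same fit. This fit changes both the units and the model, and a change confined to 1 group, such as those of Bgn and Postn, enters its residual, so a call lost there is not a measure of the spread between cultures.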

How the data were processed

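The values are MAS5 signals, a linear intensity per probe set that the authors scaled to a target of 500 on every array, per the labels' protocols; the 2% trimmed means were 500.1 to 500.3. The series text also names a median normalization over samples, which the scaled values do not show. The sources used here give no detection calls or software versions, and 0 columns belonged to other series. Starting material was 15 µg of total RNA. Symbols came from the GEO platform annotation, with 0 changes through Entrez identifiers in RefSeq (GRCm38.p6). Signals were tested as log2(signal + 50) on probe sets with at least 1 group mean above the 50th percentile of the chip (signal 159 on chip A, 234 on chip B; 7019 and 7248 probe sets). Limma 3.58.1 in R 4.3.3 fitted the 4 groups per chip with a mean-variance trend (4 residual and 5.67 or 5.59 prior degrees of freedom), with Benjamini-Hochberg adjustment over 14267 probe sets. The fit was tested on simulated arrays (confluent VEC comparison, 13162 probe sets), where 97.5% of 40 changes of 1.5 and 100% of 80 changes of 2 were recovered. Among the unchanged probe sets, 3 passed. The simulated noise had the spread between copies, and only probe sets with a mean above the median were changed. This recovery therefore does not cover the spread between cultures or dimmer probe sets. A gene was represented by its tested probe set on chip A, then by the highest mean. Every probe set of the 10 genes was reported; from the related lists, genes that passed, up to 4 a comparison, were named, and a few others that did not pass (Ccn3, Fbln1, Fbln5, Itgb1, syndecans) were added after their values were seen. Members and lists were chosen with earlier results of these data known. Alternatives were other offsets, level filters, quantile normalization, averaged copies, a replicate block, chromosome medians and leaving out single copies. The array number limits the precision.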

Additional observations from a re-analysis of the deposited data

Results flagged for a closer look

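In all, 8 probe sets of the matrix genes had a density response that differed between VEC-positive and VEC-null cells by the limma interaction term, past an adjusted p of 0.05 and a log2 size of 1. The response was more positive in VEC-positive cells for Bgn, by 3.38 (96049_at) and 1.54 (162347_f_at), for Eln by 1.52 and for Tgfbi by 1.48. It was more negative in VEC-positive cells for Postn (-3.54), Fbln2 (-3.20) and Tnc (-2.42 by 101993_at and -1.31 by 162362_f_at). Adjusted p values ran from 1.6e-05 for Bgn 96049_at to 0.038 for Eln, and over all probe sets 12.2% passed this test. The Eln difference lost its call with offsets of 1, 16 and 200 and without the level filter. With an offset of 200 the differences of Tgfbi (0.77) and Tnc 162362_f_at (-0.87) also fell under a size of 1. The groups of 2 copies were too small for a test of single outlying arrays.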

How the results depend on the processing

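Of 31 values of member probe sets that passed (160469_at included), 9 kept direction and call under every alternative that estimated them. Not every alternative did so. The fit of averaged copies estimates no difference between the lines, and the filter at the 75th percentile leaves probe sets untested. A value missing from an alternative could not lose its call there. An offset of 200 left 590, 689, 1305, 1444 and 1017 passing probe sets for VEC in confluent and in sparse cells, density in VEC-positive and in VEC-null cells and the difference between the lines, against 1130, 1383, 2190, 2353 and 1746. It left 3 member probe sets of 7 for VEC in confluent cells, 3 of 5 in sparse cells and 5 of 8 for the difference. A filter at the 75th percentile, which tests 6 of the 12, gave 691 and 913 probe sets for VEC, and 3, 2, 3 and 4 member probe sets for VEC in confluent and sparse cells, density in VEC-positive cells and the difference. Density in VEC-null cells gave 3 member probe sets with an offset of 1 and 2 with an offset of 16, instead of 1. Averaged copies gave 302 probe sets for VEC and 1412 for density, and 1 member probe set for VEC and 1 for density in VEC-positive cells.

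Having no interaction, that additive fit turned the sign for Bgn with density in VEC-null cells (1.41 by 96049_at, 0.33 by 162347_f_at), Fbln2 for VEC in confluent cells (0.52) and density in VEC-null cells (-0.74), Tnc for VEC in confluent cells (0.73 and 0.37), Eln (0.29), Tgfbi (0.69) and Fn1 (-0.08) for VEC in sparse cells, Fn1 with density in VEC-null cells (-0.18) and Sparc 97160_at for VEC in confluent cells (0.11, and 0.12 after quantile normalization). Less the chromosome median, Tgfbi in sparse cells was at 0.01. Of these only the confluent Fbln2 change had passed. Leaving out single copies turned small uncalled changes: the ranges were -0.01 to 0.08 (Bgn 162347_f_at), -0.95 to 0.01 (Eln) and -0.23 to 0.12, with 0.04 in another case (Tgfbi), for VEC in sparse cells, -0.15 to 0.22, with -0.0024 in another case (Fn1), and -0.14 to 0.40 (Sparc 164300_i_at) for density in VEC-null cells, and -0.06 to 0.24 (Postn) for density in VEC-positive cells; the cause was not tested.

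Without single copies, counts ran from 1093 to 1206, 1372 to 1521, 2178 to 2312, 2333 to 2404 and 1631 to 1798 probe sets, and from 5 to 7, 3 to 5, 7 to 8, 1 to 2 and 7 to 8 member probe sets, in the order above; a lone copy was assumed to vary like the other groups. The lowest count of 3 came without the second sparse VEC-null copy, and 2 in place of 1 without the second confluent or the second sparse VEC-null copy. Copy numbers did not pair the arrays (r of deviations -0.089 to 0.0772 over 12 pairs of groups); a replicate block ended 1 member call, Eln in the difference between the lines (1.52, adjusted p 0.05).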
